A study of Mus musculus with 5 samples.

Results

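Matrix metalloproteinases are zinc-dependent enzymes that are secreted or held at the cell surface as inactive precursors and cut collagens, laminins, proteoglycans and other matrix proteins once activated. Tissue inhibitors of metalloproteinases, the Timp proteins, bind the active site of these enzymes and block it. In the heart, both families take part in matrix turnover and scar remodelling, and endothelial cells need such enzymes to invade matrix when vessels sprout. The genes described here were 10 members of these families, chosen by name: 7 metalloproteinase genes (Mmp2, Mmp3, Mmp9, Mmp10, Mmp11, Mmp13 and Mmp14) and 3 inhibitor genes (Timp1, Timp2 and Timp3). Every probe set that the array annotation assigned to 1 of these symbols was taken, 22 of 45101 in all, and the 10 genes are among 18193 with a named probe set. The list was drawn up with results of these arrays known, so the differences below are descriptions.

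The series compared 5 cardiac progenitor clones (1D, 11B, 20B, 30 and 42) by 1 Affymetrix array of total RNA per clone. The donors were mice 5 to 6 months of age, of the strain labelled C67BL/6, and no treatment or genetic change is given for any clone. Cells from the left ventricle were enriched with an antibody to Sca-1, passed through cardiospheres, expanded, picked with cloning rings and subcloned by dilution, and all are labelled as c-kit+. Each clone was therefore a long-cultured line from a single cell, measured once, and a difference between clones has no replicate check and no p-value. The deposited values were linear ratios for each probe set. The divisor, as far as the values show, was the median of the 5 arrays for a probe set or a fixed floor for dim ones, so a ratio compares clones on 1 probe set and gives no expression level. A probe set counted as measured where its median was exactly 1 or a clone lay above 1, and where its clones spanned more than 0.05 log2 units.

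The label of the cells could be checked only in part. For Kit, the gene of c-kit, the 1 measured probe set gave 1.183 in clone 20B and 0.991 to 1.002 elsewhere. The ratios of clones 1D, 11B, 30 and 42 on it recurred exactly on 31 other probe sets, so their closeness is no measurement. Kit probe set 1452514_a_at lay below the floor in all clones, at 0.614 to 0.618. Pou5f1 stayed below the floor in all clones, and Ly6a, which encodes Sca-1, had no probe set of its own. Of the 9 macrophage and leukocyte markers 3 were measured, with a largest range of 0.29 log2 units, and Ptprc, Cd68, Cd14, Lyz2, Itgam and Tyrobp were not. Of 7 endothelial markers only Egfl7 was measured (range 0.11), and Pecam1, Cdh5, Kdr, Tek, Tie1 and Emcn were not. Of 5 neutrophil markers 2 were measured, with ranges up to 0.20, and of 6 cardiomyocyte markers 3, led by Myh6 at 0.56. Among the RNA quality controls, the Actb signal at the 5' end over that at the 3' end was lowest in clone 11B, at 0.597. It was 0.743 in clone 30 and 1.00 to 1.08 in the others. For Gapdh the same measure was closer, at 0.924 in clone 11B, 1.00 in clone 30 and 1.03 to 1.16 in the others. The ratios of the 18S probe sets were 0.411 to 0.555 in clone 11B, 0.651 to 0.955 in clone 42 and 1.00 to 1.57 in the others.

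The 8 members with a promoter sequence fall into 2 kinds by the letters just before their start sites. This sequence is shown here because it groups the genes by a feature that played no part in choosing them. RefSeq promoter sequences (GRCm38.p6) were found for 8 of the 10 members. The last 100 bases before the annotated start (positions -100 to -1) were searched on both strands for TGAGTCA, a binding motif of AP-1, for TATAAA, the TATA box, and for GGGCGG, the GC box. Matches are in capitals, and no matches to different motifs overlap.
Mmp3, chr9:7445722-7445821, plus strand: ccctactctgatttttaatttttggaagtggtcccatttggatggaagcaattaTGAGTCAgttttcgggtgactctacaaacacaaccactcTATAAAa
Mmp10, chr9:7502242-7502341, plus strand: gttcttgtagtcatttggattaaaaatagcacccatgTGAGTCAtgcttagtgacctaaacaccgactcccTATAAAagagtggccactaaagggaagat
Mmp13, chr9:7272414-7272513, plus strand: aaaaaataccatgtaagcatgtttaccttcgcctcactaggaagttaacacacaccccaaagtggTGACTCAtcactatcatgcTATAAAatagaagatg
Mmp14, chr14:54431498-54431597, plus strand: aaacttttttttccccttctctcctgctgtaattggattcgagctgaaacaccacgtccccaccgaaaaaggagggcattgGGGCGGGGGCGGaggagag
Timp2, chr11:118355412-118355511, minus strand: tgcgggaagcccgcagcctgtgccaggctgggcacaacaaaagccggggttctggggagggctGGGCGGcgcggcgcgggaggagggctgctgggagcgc

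Mmp3, Mmp10 and Mmp13 each held a match to the AP-1 motif and to the letters of the TATA box and no GC box. The TATAAA match began at position -7 in Mmp3, -29 in Mmp10 and -16 in Mmp13, so its distance from the annotated start differed. In Mmp13 the AP-1 match was on the minus strand and reads TGACTCA. Of 32851 windows of the same length before annotated starts, 1.88% held the AP-1 motif, 5.56% the TATA box and 0.149% both. Mmp11, Mmp14, Timp1, Timp2 and Timp3 held a GC box and neither other motif, where 24.7% of all windows held a GC box. The share of G and C was 38% in Mmp3, 41% in Mmp10 and 38% in Mmp13, against 54% to 75% in the other 5 members and a median of 55% over all windows. A match is a description of these letters and was not tested as a binding site.

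Across the clones, 6 of the 10 members could be followed: Mmp3, Mmp10 and Mmp14 among the enzymes, and all 3 inhibitors. Mmp3 ranged over 4.54 log2 units, Timp2 over 1.47, Mmp14 over 1.01, Mmp10 over 0.83, Timp1 over 0.71 and Timp3 over 0.57. In all, 3 members reached 1 log2 unit, a 2-fold difference, where 13.0% of the 9435 measured genes did so. Mmp14 lay just inside that limit and Mmp10 just outside. The median range was 0.92 for the 6 members and 0.41 for all measured genes. The range of Mmp3 was larger than that of 99.9% of measured genes, that of Timp2 larger than 95.8%, Mmp14 87.2%, Mmp10 80.5%, Timp1 73.6% and Timp3 64.3%. The members that could not be followed are left out of these counts. Because the members were chosen with values known, nothing further is read from the shares. For scale, the clone values of paired probe sets for 1 gene disagreed by 0.43 log2 units (SD, 6681 pairs), which gives 0.31 for a single probe set and leaves out any error from culture or RNA extraction.

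**Figure D1:**
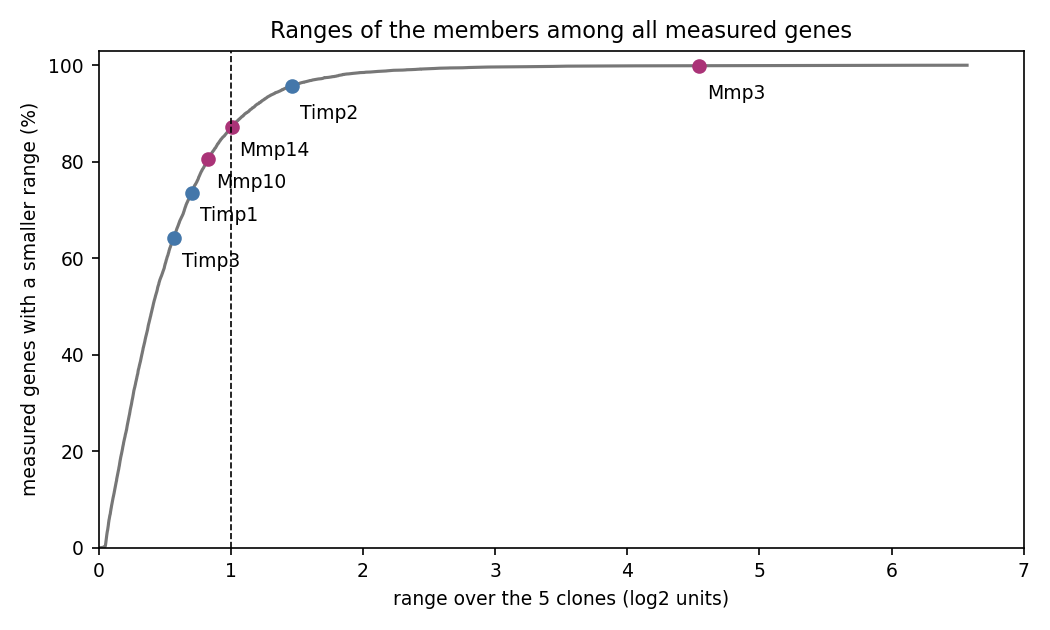
The curve gives, for each range over the 5 clones on the x axis (log2 units), the percentage of the 9435 measured genes with a smaller range; points are the 6 measured members, enzymes in purple and inhibitors in blue, and the dashed line marks 1 log2 unit. Mmp3 at 4.54 sits near the top of the curve, which runs on to 6.57, while Timp3, Timp1 and Mmp10 lie left of the line.

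Mmp3 encodes stromelysin-1, which cuts proteoglycans, laminin and fibronectin and activates other metalloproteinase precursors. Its ratio on the single probe set, 1418945_at, was 1.00 in clone 1D, 2.183 in clone 11B, 0.664 in clone 20B, 0.134 in clone 30 and 3.128 in clone 42. No pair of clones shared a level: clones 42 and 11B were high, 1D and 20B lay in between, and clone 30 was far below. The signal in clone 42 was 23.3-fold that in clone 30, 4.71-fold that in clone 20B and 3.13-fold that in clone 1D. Clone 11B had 16.3-fold the signal of clone 30. The neighbours 42 and 11B were 1.43-fold apart and 1D and 20B 1.51-fold, or 0.52 and 0.59 log2 units, against an error of 0.43 for the difference of a pair of values of spread 0.31. The gap between clone 20B and clone 30 was 4.96-fold.

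Clone 30 was the lowest on Mmp3 by 2.31 log2 units to the next clone, the only case in which a member lay at least 1 log2 unit outside all 4 other clones. Of all measured genes 2.75% had such a clone, and 1.27% had one below the others. The value of clone 30 against the median of the others was -3.46. Over the other settings it went from -4.03 without clone 1D or without clone 20B to -2.76 with 0.1 added to each ratio, and without clone 30 the range of Mmp3 was 2.24. A single probe set carried all of these values. In clone 11B the high Mmp3 value stood beside the low Actb 5' to 3' ratio given above. The low Mmp3 value of clone 30 stood beside an Actb ratio of 0.743. The part of RNA quality in the values of these clones, on Mmp3 and on the other members, was not tested.

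Mmp10, which lies close to Mmp3 on chromosome 9 with Mmp1a between them, encodes stromelysin-2, an enzyme of similar substrates. Its 1 probe set, 1420450_at, had ratios of 0.773 in clone 1D, 1.373 in clone 11B, 1.00 in clone 20B, 0.995 in clone 30 and 1.153 in clone 42. Clones 11B and 42 were again the highest, but in the opposite order to Mmp3, and clone 1D was the lowest rather than clone 30. The pair of ratios in clones 20B and 30 recurred exactly on 87 other probe sets. Clone 20B is the median there, so this match rests on the ratio of clone 30 alone. Whether the closeness of these clones is a measurement is not known. Clone 11B lay 1.78-fold above clone 1D and 1.19-fold above clone 42. Without clone 1D the range of Mmp10 was 0.46 log2 units.

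These genes belong to a run of 10 metalloproteinase genes that follow each other among the protein-coding genes of chromosome 9: Mmp13, Mmp12, Mmp1b, Mmp3, Mmp1a, Mmp10, Mmp8, Mmp27, Mmp20 and Mmp7. Of these, 9 had a named probe set and 4 were measured: Mmp3, Mmp10, Mmp12 and Mmp7. Mmp12, the macrophage elastase, had a ratio of 1.122 in clone 42 and 0.751 to 0.783 in the other clones, all below the floor, so it counted as measured only through clone 42 and had to be highest there. Mmp7, matrilysin, had 1.314 in clone 42 against 0.992 to 1.002. Clone 42 lay 0.53 and 0.39 log2 units from the other clones' median on these genes, against an error of 0.31 for a single probe set and 0.43 for the difference of a pair of values. The 3 measured macrophage markers given above had a median deviation of 0.01 in clone 42. On Fcgr1 the ratios of clones 11B, 20B and 42 recurred exactly on 503 other probe sets. On Adgre1 those of clones 11B, 20B, 30 and 42 recurred on 4. The closeness of clone 42 to the other clones on these markers is therefore no measurement, and the part of macrophages in its values was not tested.

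Mmp14 encodes the membrane-anchored enzyme MT1-MMP, which cuts fibrillar collagen at the cell surface and activates the Mmp2 precursor in a complex with Timp2. It was highest in clone 42 on 3 of 3 measured probe sets. On 1416572_at the ratios were 1.424 in clone 1D, 0.769 in clone 11B, 0.984 in clone 20B, 1.00 in clone 30 and 1.887 in clone 42. On 1440920_at they were 1.00, 0.873, 0.659, 1.009 and 1.737 in the same order of clones. On 1448383_at they were 1.002, 1.00, 0.937, 0.991 and 1.501. Clone 42 thus stood above the next clone by 1.33-fold, 1.72-fold and 1.498-fold. The order below it differed between probe sets, with clone 11B lowest on 1 and clone 20B lowest on 2.

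Averaged over the 3 probe sets, the deviation of Mmp14 in clone 42 from the other clones' median was 0.86 log2 units, and the probe sets taken singly gave 0.59 to 0.93. Probe sets are not replicates of the clone. Clone 1D was next at 0.27, on the strength of 1416572_at, while clone 30 lay at 0.01, clone 11B at -0.28 and clone 20B at -0.33. On 1448383_at, the ratios of clones 1D, 11B and 30 also stood together on 1067 other probe sets, a shared level, so the fold of clone 42 over them is uncertain in size. The range of Mmp14 sat at the limit: it was 0.95 with quantile normalization, 0.93 with 0.1 added, 0.96 without clone 20B, 0.41 without clone 42 and 1.30 with only the probe set highest in mean ratio.

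**Figure D2:**
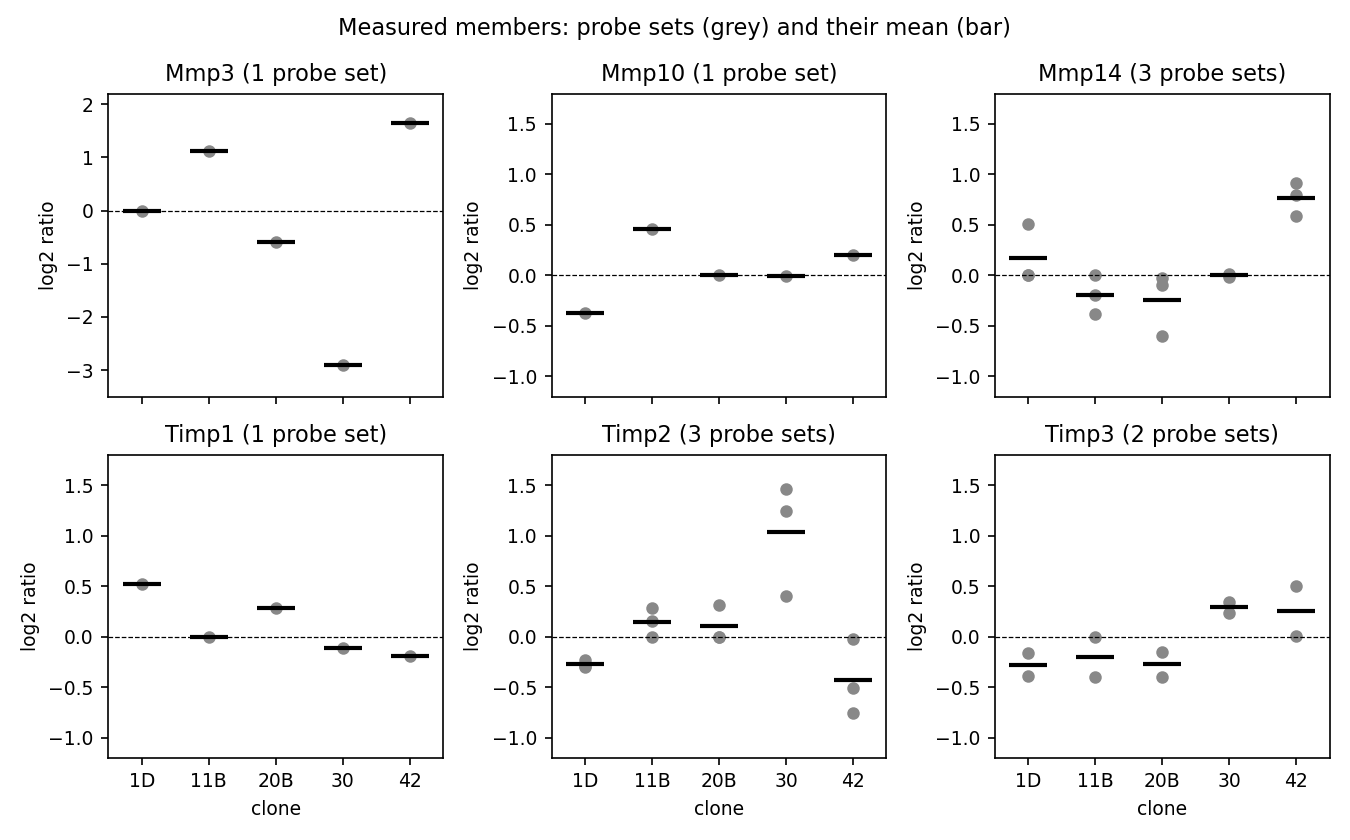
Log2 of the deposited ratio (y axis) by clone (x axis) for the 6 measured members; grey points are measured probe sets, black bars their mean, and the dashed line is a ratio of 1. The axis of Mmp3 is wider than that of the others. Mmp14 is highest in clone 42 on all 3 probe sets, and Timp2 is highest in clone 30 on all 3.

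Timp2 encodes an inhibitor of most metalloproteinases that also takes part in Mmp2 activation. It was highest in clone 30 on 3 of 3 measured probe sets. On 1433662_s_at the ratios were 0.82 in clone 1D, 1.219 in clone 11B, 1.00 in clone 20B, 2.751 in clone 30 and 0.59 in clone 42. On 1460287_at they were 0.851, 1.00, 1.245, 2.369 and 0.704 in the same order, and on 1450040_at 0.81, 1.112, 1.00, 1.32 and 0.983. Clone 30 stood 2.26-fold, 1.90-fold and 1.19-fold above the next clone. The lowest clone was 42 on the first pair and 1D on 1450040_at, so clone 42 was not the lowest on all of them.

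In the mean of these probe sets, Timp2 in clone 30 had a deviation of 1.12 log2 units, with 0.41 to 1.60 on the probe sets taken singly, and clone 42 one of -0.56, with -0.90 to -0.10. The gap of clone 30 to the next clone was 0.89, under the limit of 1. Probe set 1420924_at was below the floor in all clones and did not count as measured, but it too had clone 30 highest, at 0.923 against 0.494 to 0.498. The other 2, 1437081_at and 1454677_at, were below the floor with all clones tied within 0.02 log2 units. With every probe set averaged, the value of clone 30 became 0.71 and the range 0.88. Without the probe set marked for cross-hybridization, 1433662_s_at, they were 0.92 and 1.09. Without clone 30 the range was 0.58.

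Timp3 encodes an inhibitor that stays bound to the matrix and also blocks ADAM proteases. It was higher in clones 30 and 42 than in the others, but its probe sets did not give the same order. On 1419088_at the ratios were 0.761 in clone 1D, 0.76 in clone 11B, 0.757 in clone 20B, 1.179 in clone 30 and 1.413 in clone 42, the first 3 tied below the floor, and the probe set counted as measured only through clones 30 and 42. On 1449334_at they were 0.895, 1.00, 0.901, 1.272 and 1.005, so that clone 30 alone was high. On 1419089_at, below the floor throughout, clone 30 had 0.74 and the others 0.452 to 0.458. On 1449335_at clone 42 had 0.52 and the others 0.482 to 0.485. The mean deviation was 0.53 in clone 30 and 0.49 in clone 42. The latter was 0.08 when only probe sets divided by their own median were used, which leaves 1449334_at alone with its shared level.

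Timp1 encodes a secreted inhibitor that is readily induced in fibroblasts. Its single probe set, 1460227_at, had ratios of 1.43 in clone 1D, 1.00 in clone 11B, 1.217 in clone 20B, 0.927 in clone 30 and 0.877 in clone 42. Clone 1D was the highest and clones 30 and 42 the lowest, which differs from the order of both other inhibitors. The whole span was 1.63-fold. Neighbouring clones were 0.08 to 0.28 log2 units apart, less than the error of a pair of values.

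Clones 30 and 42 thus lay at opposite ends for Mmp3 and Timp2. Both genes were at least 1 log2 unit apart between these clones, as were 4.08% of measured genes. Timp2 was 4.66-fold, 3.37-fold and 1.34-fold higher in clone 30 on its 3 probe sets, while Mmp14 was 1.89-fold, 1.72-fold and 1.51-fold higher in clone 42. The difference of Mmp14 minus Timp2, taken between their mean log2 ratios, was 1.20 in clone 42, 0.45 in clone 1D, -0.34 in clone 11B, -0.34 in clone 20B and -1.03 in clone 30. For Mmp3 minus Timp1 it was 1.83 in clone 42, 1.13 in clone 11B, -0.52 in clone 1D, -0.87 in clone 20B and -2.79 in clone 30. Mmp3 minus Timp2 kept that order, with 2.08 in clone 42, 0.98 in clone 11B, 0.27 in clone 1D, -0.70 in clone 20B and -3.93 in clone 30. Mmp10 minus Timp1 gave another order. It was highest in clone 11B at 0.46 and lowest in clone 1D at -0.89, with clone 42 at 0.39, clone 30 at 0.10 and clone 20B at -0.28. Mmp14 minus Timp3 spanned less, from 0.51 in clone 42 and 0.45 in clone 1D to 0.04 in clone 20B, 0.01 in clone 11B and -0.29 in clone 30. Each ratio is relative to its own probe set, so these differences order the clones and do not give an enzyme to inhibitor ratio.

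Markers of other cell types also differed in these clones. Of 7 epicardial and mesothelial markers 4 were measured, and in clone 30 Krt8 lay at 1.55 log2 units from the median of the others, Upk3b at 1.19 and Msln at 0.82, while Krt18 lay at -0.02. The Krt18 values of clones 1D, 11B, 30 and 42 were the same as those of Plaur, described below. The closeness of these clones on Krt18 is therefore no measurement. Upk3b counted as measured only through clone 30; without it the list's median in clone 30 was 0.82. Of 7 smooth muscle and pericyte markers 3 were measured, and in clone 30 Tagln lay at 1.83, Acta2 at 0.21 and Myh11 at 0.01. Of 8 fibroblast markers 3 were measured: Col1a1 lay at -2.17 in clone 42, whereas Pdgfra lay at 0.99 and Ddr2 at 0.36. Col1a2, Tcf21, Thy1, Dcn and Lum had no measured probe set. The part of these markers in the values of Mmp3, Mmp14 and Timp2 was not tested.

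The other 4 members could not be followed. Mmp2 and Mmp9 are the gelatinases, which cut denatured collagen and basement membrane collagen. Mmp11 is stromelysin-3 and Mmp13 is collagenase-3. On the 6 probe sets of these genes, each clone lay below the floor, at ratios of 0.378 to 0.894, and the largest difference between clones was 1.07-fold. Mmp2 had 0.388 to 0.395 on 1416136_at and 0.421 to 0.426 on 1439364_a_at. Mmp9 had 0.851 to 0.855 on 1416298_at and 0.378 to 0.382 on 1448291_at. Mmp13 had 0.857 to 0.864, and Mmp11 had 0.894 in clone 30 against 0.836 to 0.841 in the others. Altogether 11 of the 22 probe sets were not measured, 6 of them in these genes and 5 in Timp2 and Timp3, and on all 11 at least 4 clones were tied. A position below the floor does not show that a transcript is absent.

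**Figure D3:**
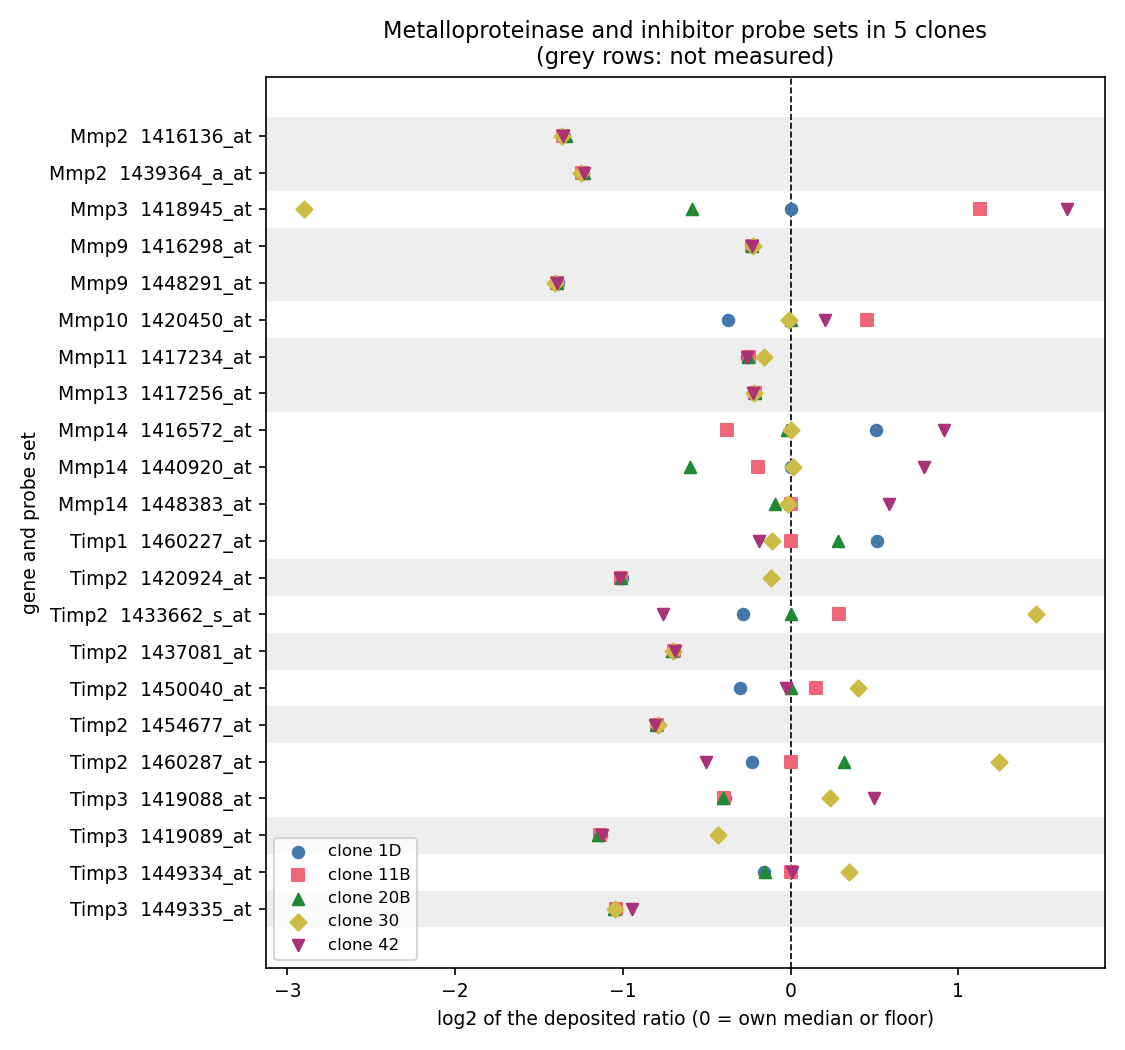
Log2 of the deposited ratio (x axis) for the 22 probe sets of the 10 members (y axis), 1 symbol per clone; 0, the dashed line, is the probe set's own median or the floor, and grey rows are the 11 probe sets that were not measured. Mmp3 spreads from clone 30 at the left to clone 42 at the right, while the probe sets of Mmp2, Mmp9 and Mmp13 have all clones on top of each other.

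Other genes of matrix proteolysis were taken from a list of 66, of which 57 had a named probe set and 34 were measured. A range of at least 1 log2 unit was seen in 6 of the 34 (17.6%), against 13.0% of all measured genes, and none lay 1 log2 unit outside all other clones. The list's median range was 0.45, against 0.41 for all measured genes. Of the 34, 7 counted as measured only through clones above the floor, 4 of them through clone 42 alone (Mmp12, A2m, Plau and Adam12) and Adamts9 through clone 30 alone, which fixes where they are high. On own-median probe sets, 27 genes of the list remained. Relative to the median of the other clones, 18 of them were higher in clone 42 and 9 lower, with a median of 0.04, where the 8645 such genes in all had 4591 higher and 4050 lower and a median of 0.00361. In clone 30, 10 were higher and 17 lower, with a median of -0.01, against 3675 and 4967 and a median of -0.01.

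Among partners of the members, Bsg, the surface protein basigin that induces metalloproteinases, was highest in clone 30 with a ratio of 1.689, against 0.83 in clone 1D and 1.00 to 1.005 in the others. Sparc, a collagen-binding glycoprotein of the matrix, lay at 0.76 log2 units in clone 30 and -1.23 in clone 42, although its probe set 1458204_at had clone 42 highest. Timp4, the remaining inhibitor of the family, gave 1.378 in clone 11B and 0.995 to 1.005 elsewhere on its 1 measured probe set. Reck, a membrane-anchored inhibitor, also had clone 11B highest, at 1.206 against 0.989 to 1.003. Mmp19 had clone 30 at 1.909 on 1421977_at, with the other clones at 0.88 to 1.005, but on 1421976_at it had clone 42 low, at 0.574.

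In the plasminogen system, which activates metalloproteinase precursors, 3 of 9 genes were measured. Plat, the tissue type, had ratios of 0.798 in clone 1D, 1.097 in clone 11B, 1.00 in clone 20B, 0.813 in clone 30 and 1.415 in clone 42. Plau, the urokinase type, had 1.026 in clone 42 and 0.62 to 0.643 in the others on 1422138_at, and 0.998 against 0.698 to 0.702 on 1422139_at, which stayed below the floor. Plau thus counted as measured only through clone 42, which fixes that clone as its highest. The deviation of clone 42 was 0.65 for Plat and 0.72 for Plau. Plaur, the urokinase receptor, spanned 0.08 log2 units. Its ratios in clones 1D, 11B and 42 recurred exactly on 1212 other probe sets, so their closeness is no measurement.

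Among the other proteases, Adam17, which sheds growth factors and cytokines from the cell surface, ranged over 1.11 log2 units. Its probe set 1421857_at had 1.962 in clone 42, 1.339 in clone 1D, 1.00 in clone 20B, 0.502 in clone 30 and 0.435 in clone 11B, while 1421859_at stayed between 0.935 and 1.056. Adamts7 was low in clone 30, at 0.558 against 0.995 to 1.141. The lysosomal proteases Ctsd and Ctsl were also lowest in clone 30, at 0.467 and 0.494, with the other clones at 0.866 to 1.381 and 0.925 to 1.343. Ctsd, Ctsl and Adamts7 shared with Mmp3 that clone 30 was the lowest, though none by 1 log2 unit to the next clone.

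**Figure D4:**
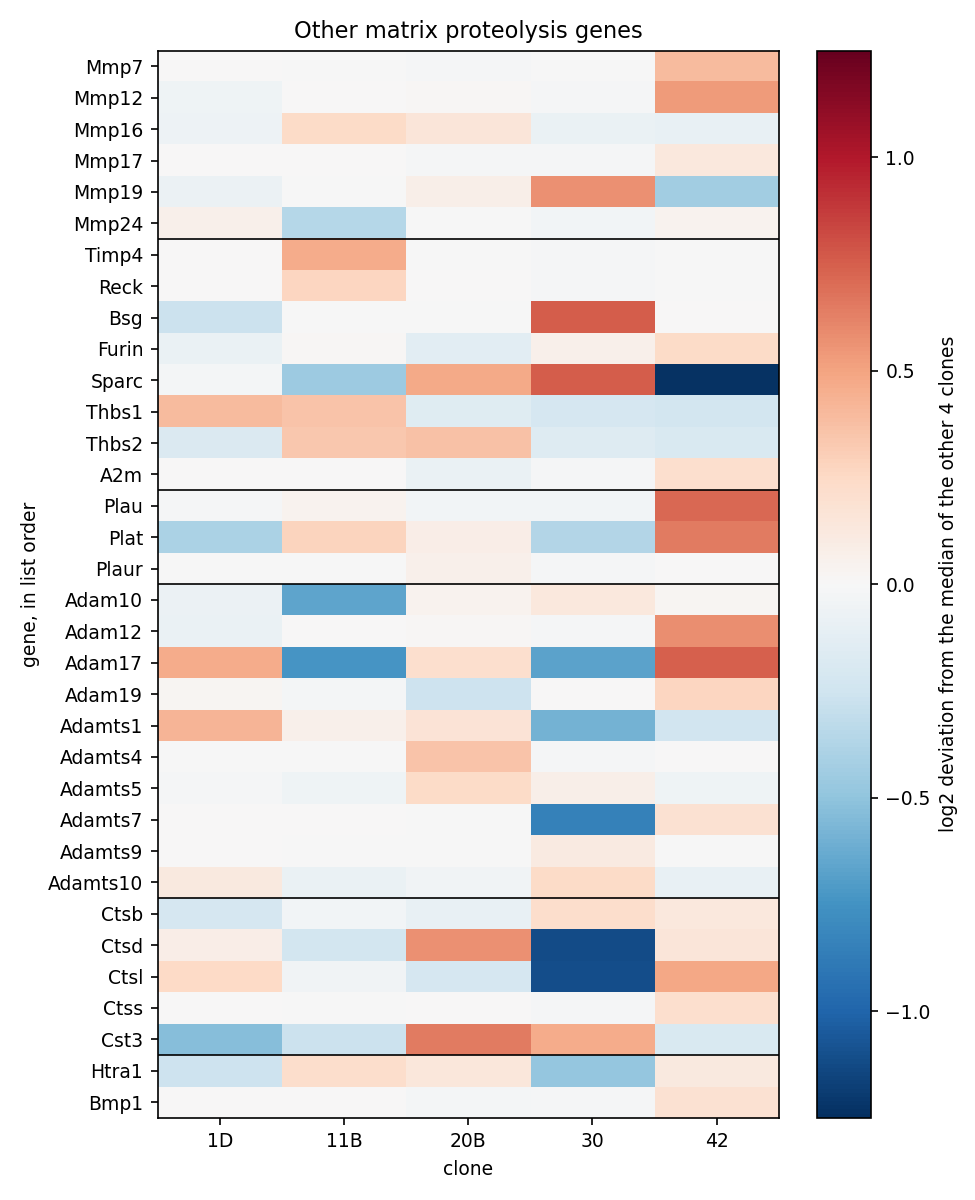
Colour gives the log2 deviation of each clone (x axis) from the median of the other 4 clones for the 34 measured genes of the list of other matrix proteolysis genes (y axis; black lines separate metalloproteinases, their other inhibitors and activators, the plasminogen system, ADAM and ADAMTS proteases, cathepsins and other proteases). Plat and Adam17 are highest in clone 42, and Ctsd, Ctsl and Adamts7 are low in clone 30.

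The genes with the most similar order of clones were sought for the 3 members of largest range, by Pearson's correlation over the 5 clones among 1212 other measured genes with a range of at least 1 log2 unit, predicted gene models and genes named only by a clone or locus number left out. For Mmp3 these were Tle4 (0.99), Hivep1 (0.99), Cask (0.99), Scn1a (0.98) and Zfp280d (0.98). Tle4, a transcriptional corepressor, lay at -1.41 log2 units in clone 30 and 0.64 in clone 42, and Cask at -1.45 and 1.11. For Timp2 they were Metrnl (0.99), Zfp703 (0.99), Ost4 (0.99), Rap2a (0.98) and Wnk4 (0.98), with Metrnl at 1.26 in clone 30 and -0.82 in clone 42. For Mmp14 they were Safb2 (0.99), Mfhas1 (0.97), Sox4 (0.96), Rab40c (0.96) and Prmt1 (0.96). With only 5 arrays shared by all genes, a correlation of at least 0.9 was reached by 32, 59 and 49 genes, so these names describe a shape and nothing more.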

How the data were processed

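Total RNA of 5 clones was measured on 1 Affymetrix array each, and each clone formed its own group. The deposited table holds a linear ratio for each of 45101 probe sets; its unit was read from the values. The submitters' processing notes list RMA and GCRMA with no version and no role. Over the 5 arrays, 18926 probe sets (42.0%) had a median of exactly 1 and 26175 a lower one. The authors' ratios were therefore taken as divided by the probe set's own median or by a floor, a step not given in the sources used here. Arrays have no read depth; precision is limited by their number.

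Of the probe sets, 34958 had 1 gene symbol in the array annotation, 932 several and 9211 none; symbols were updated through a RefSeq table (GRCm38.p6), which also gave gene order. The 64 control probe sets were left out. For each gene the log2 ratios of its measured probe sets were averaged, and a clone was set against the median of the others; a clone stood apart when its gap to every other clone was 1 log2 unit or more (below the others only with an own-median probe set). Clones within 0.02 log2 units were called tied. No test was possible with 1 array per clone. The members and lists were chosen with earlier results of these data known. All members were named; of the list of other proteolysis genes, those with a range of at least 1 log2 unit, at most 12; and the 5 genes most similar to each of the 3 members of largest range. Mmp7, Mmp12, Mmp19, Timp4, Reck, A2m, Adam12, Adamts9, Plau, Plat, Plaur, and the marker genes with values were named after their values were seen. Calculations used Python 3.11.15, NumPy 2.4.6 and pandas 2.3.3 and were tested on simulated ratios.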

Additional observations from a re-analysis of the deposited data

How the results depend on the processing

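No paired analysis was possible because each clone had 1 array and the labels carry no replicate numbers. The number of members with a range of at least 1 log2 unit, 3 in the reported setting, was 1 with a limit of 1.5 log2 units and 4 with 0.8, and it was 2 or 3 in the 9 other settings with all clones. The 1 call of a member outside all other clones became 2, with Timp2 in clone 30 added, with only the probe set highest in mean ratio used and with a limit of 0.8. Leaving out each clone in turn gave 2 to 3 members, 0 to 1 calls and 2 to 6 other proteolysis genes. The measured genes with a range of at least 1 log2 unit were then 810 to 1107. The lowest numbers of calls, other proteolysis genes and measured genes of that range came without clone 30. The 6 other proteolysis genes fell to 3 with 0.1 added to each ratio. With every probe set averaged, the genes with a range of at least 1 log2 unit went from 1229 of 9435 to 681 of 18193. That setting takes in genes that did not count as measured. Of 474 values of single members under these settings, 444 moved by less than 0.31 log2 units, 30 moved by more and none changed sign among those beyond 1 log2 unit. The 444 include values that could not move. Mmp3, Mmp10 and Timp1 have 1 probe set each, divided by its own median, which the settings on the choice of probe sets and on the floor leave unchanged. The count is therefore no measure of stability for these genes. The range of Mmp3 stayed between 2.24 and 4.94.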
